A study of Mus musculus with 22 samples.

Results

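DNA topoisomerases and the enzymes that take trapped topoisomerase off DNA were followed as 8 genes, Top1, Top1mt, Top2a, Top2b, Top3a, Top3b, Tdp1 and Tdp2, in thymic medullary epithelial cells (MECs) of mice treated with topoisomerase inhibitors. The genes were chosen for their function, as the drug targets and the repair enzymes of their cleavage complexes, through every probe whose only annotated gene symbol was one of these names. All 8 were measured, each by 1 probe, out of 19752 genes tested in all, and 2 further probes annotated to both Top2a and Hibadh were left out. The study hybridised total RNA of sorted MECs (live by DAPI, without CD45, low in Ly51 and high in MHC class II) to 22 Affymetrix whole-transcript arrays. All mice were C57Bl/6, either Aire+/+ (wild type, WT) or Aire-/- (knockout, KO), Aire being the transcriptional regulator that turns on genes of peripheral tissues in these cells. Each genotype received DMSO (the vehicle), Etopo, Topo, or Etopo and Topo together. Etopo commonly stands for etoposide, which poisons type II topoisomerases, and Topo for topotecan, which poisons Top1, although the labels give only the short names. There were 3 arrays per group, except 2 each for KO Etopo and KO Etopo Topo. Arrays came from mice 6 weeks old, except that WT DMSO 3, WT Etopo 3 and all 5 Etopo Topo arrays came from mice 4 weeks old, so that age and the combined treatment cannot be told apart within KO. WT DMSO 1, WT Etopo 2 and WT Topo 2 are labelled male and the rest female. All male arrays are thus WT, and the part of sex in the genotype differences was not tested. WT Etopo Topo 1 and 2 carry both drugs in their titles but Etopo alone in their treatment label, and were grouped by title. The labels leave unsaid if RNA came from single or pooled mice, and every p-value rests on the array-to-array spread alone.

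Topoisomerases cut DNA, let strands pass or turn, and reseal it, and during the cut an active-site tyrosine is joined to the DNA end in a cleavage complex. Etoposide and topotecan hold type II enzymes and Top1, respectively, in that complex, and a polymerase or fork that runs into it can leave a break with protein attached. Tyrosyl-DNA phosphodiesterases cleave the bond left behind: Tdp1 is known mainly for Top1 and Tdp2 mainly for Top2. In cells that transcribe long genes, Top1 and Top2b relieve the supercoils made by RNA polymerase, whereas Top2a is known as the enzyme of dividing cells. Top1 has been described as a partner of Aire at enhancers, and the inhibitors here bear on that link.

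The sorted cells had high signal for several markers of mature MECs. With all genes ranked by mean signal, Cd80 stood at the 99.4 percentile, and the MHC class II gene H2-Aa and the epithelial keratin Krt8 at the 99.9 percentile. Cd86, of the same mature MEC list as Cd80, stood at the 63.2 percentile. Single markers of other cells were high too, Lyz2 of macrophages and dendritic cells (99.5), Dcn of stroma (96.3) and Cd79b of B cells (93.1). The other measured markers of those cell types stood at the 83.4 percentile (Cd68) or lower. Tuft cell genes were high as a set: all but Il25 (44.7) stood between the 83.9 (Dclk1) and 95.7 (Pou2f3) percentiles. The mean of that list was 9.37 in WT DMSO and 10.53 in WT Etopo Topo, and 9.36 in KO DMSO and 9.89 in KO Etopo Topo. The part of such cells in the values of the 8 genes was not tested. The Aire probe read 12.31 ± 0.11 (log2 intensity, SD, n = 3) in WT DMSO and 12.91 ± 0.04 (n = 3) in KO DMSO, a difference of 0.60 ± 0.25 (SE, limma adjusted p = 0.101). The knockout arrays thus held Aire signal, and with the deleted part of the gene not given in the sources used here, that probe does not check the genotype labels. Thymocyte markers, averaged over 16 genes, read 8.15 on WT DMSO 1 and 8.60 on KO DMSO 1, and between 6.84 and 7.45 elsewhere. The spread of signal was narrowest on KO Etopo Topo 1, where the 10th and 90th percentiles of log2 intensity were 3.89 apart, and 4.32 to 5.01 on the others. In such bulk samples fewer cells of a kind and less RNA per cell cannot be told apart.

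Over the 8 groups, Tdp1 and Top2a moved by far more than the other genes of the set. The group means of Tdp1 spanned 1.79 on the log2 scale (the 98.1 percentile of all genes) and those of Top2a 1.76 (97.9), followed by Tdp2 with 0.91 (84.5). The group means of Top1, Top1mt, Top2b, Top3a and Top3b spanned 0.36 to 0.49. The enzymes' spread between arrays of a group also differed: the pooled within-group SD was 0.38 for Top2a (the 97.7 percentile), 0.27 for Top2b, 0.16 for Tdp1 and 0.12 for Top3a.

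**Figure D1:**
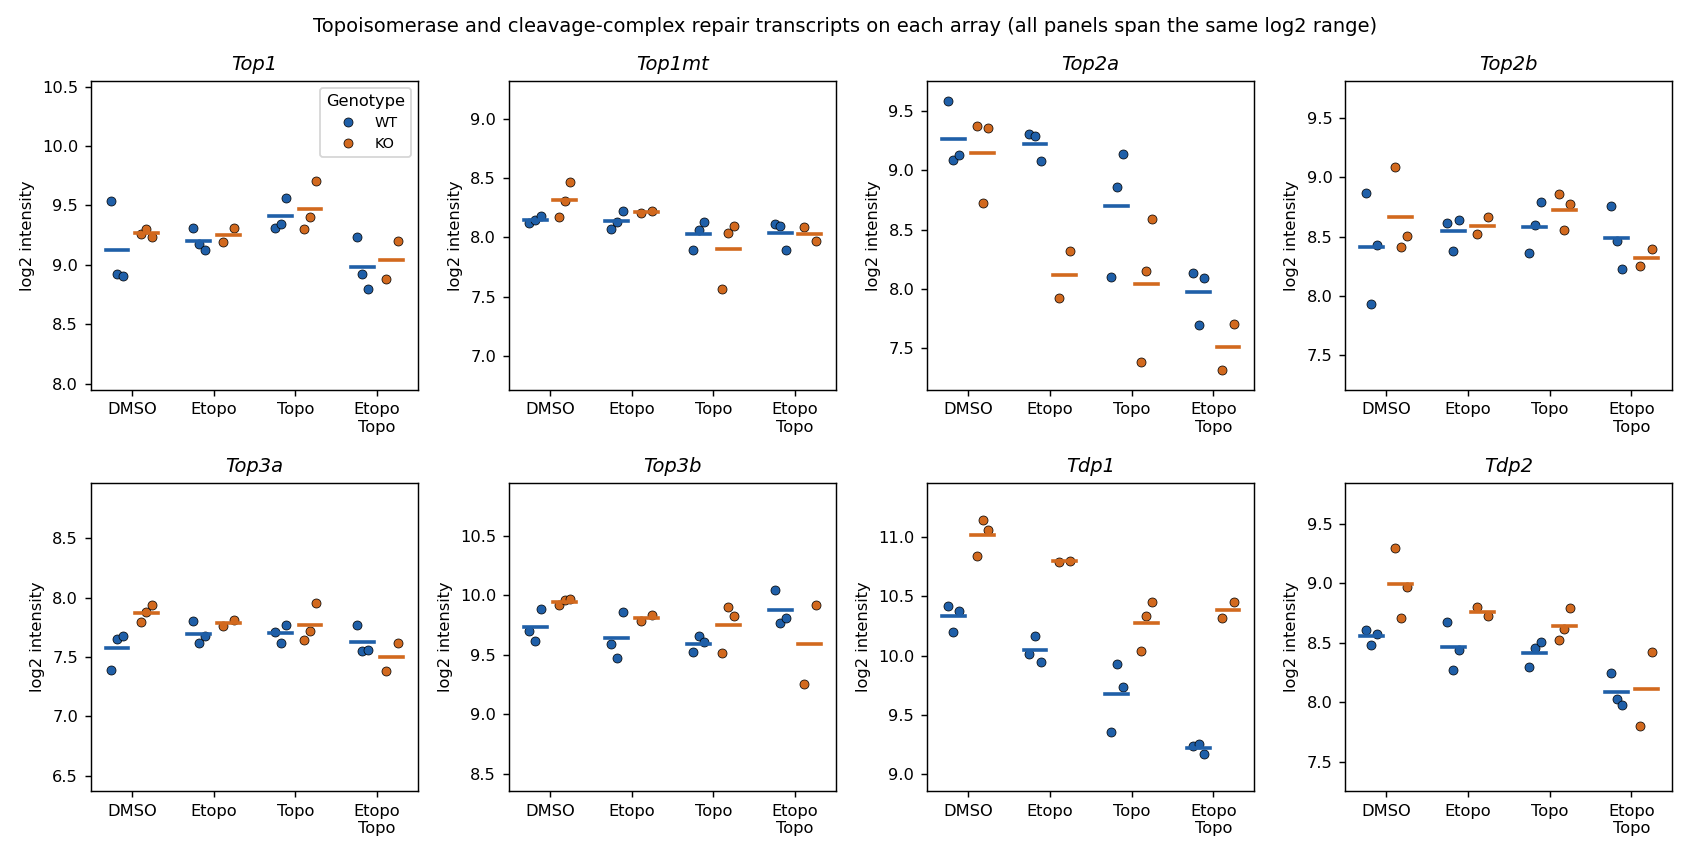
Log2 intensity of the 8 genes on each of the 22 arrays, by treatment, with WT in blue, KO in orange and horizontal bars at the group means; every panel spans the same range of log2 units. Tdp1 lies higher in KO than in WT under each treatment, and Top2a is low in the drug groups of KO and in WT Etopo Topo. The group means of Top1, Top1mt, Top2b, Top3a and Top3b differ less.

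Top1, the nuclear enzyme that nicks a single DNA strand and is the target of topotecan, passed the threshold of adjusted p under 0.05 in none of the 25 contrasts. In WT it read 9.54, 8.92 and 8.91 on the DMSO arrays, 9.31, 9.18 and 9.12 under Etopo, 9.31, 9.34 and 9.57 under Topo, and 9.23, 8.93 and 8.79 under both drugs. In KO it read 9.26, 9.30 and 9.23 with DMSO, 9.19 and 9.31 under Etopo, 9.30, 9.40 and 9.70 under Topo, and 8.88 and 9.20 under both. WT DMSO 1 stood above the other WT DMSO arrays, and each WT drug group overlapped the DMSO group. In KO only the Etopo Topo arrays lay wholly apart from DMSO, below it, as did 18.9% of all genes. The fitted difference between Topo and DMSO was 0.29 (95% interval -0.04 to 0.61) in WT and 0.20 (-0.12 to 0.53) in KO, with limma adjusted p = 0.554 and 0.655. Under both drugs Top1 was -0.42 from Topo alone in WT (adjusted p = 0.199) and -0.43 in KO (adjusted p = 0.151). Top1mt, the mitochondrial relative of Top1, read between 7.56, on KO Topo 1, and 8.47, on KO DMSO 3. Its lowest adjusted p in any drug comparison with DMSO within a genotype was 0.138, for a difference of -0.28 (-0.58 to 0.01) in KO Etopo Topo, and under Topo in KO it differed by -0.42 (-0.68 to -0.15, adjusted p = 0.15).

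The type II enzymes differed from each other. Top2a, the isoform of replicating chromosomes and mitosis, fell in 3 of the 6 drug comparisons with DMSO, whereas Top2b, the isoform of nondividing cells and of transcribed promoters, passed the threshold in none of the 25 contrasts. In WT, Top2a read 9.59, 9.08 and 9.13 with DMSO and 9.31, 9.29 and 9.08 under Etopo, which overlap. Under Topo it read 8.10, 8.86 and 9.14 in WT, a wide scatter that reaches into the DMSO range, and under both drugs 8.13, 7.69 and 8.09, all below every WT DMSO array. In KO, Top2a read 9.37, 8.72 and 9.36 with DMSO, 7.92 and 8.32 under Etopo, 7.38, 8.15 and 8.59 under Topo, and 7.32 and 7.70 under both. Each KO drug group therefore lay below all KO DMSO arrays. The share of all genes whose drug arrays lay below every DMSO array was 18.5% for WT Etopo Topo, 12.8% for KO Etopo, 8.79% for KO Topo and 18.9% for KO Etopo Topo.

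Under both drugs Top2a fell by 59.1% in WT. The log2 change was -1.29 ± 0.27 (SE, limma adjusted p = 0.00359), and it was -1.64 ± 0.30 (adjusted p = 0.00297) in KO. Topo alone gave -1.11 ± 0.27 (adjusted p = 0.0475) in KO and -0.57 ± 0.27 (adjusted p = 0.423) in WT, and over both genotypes Topo lowered Top2a by -0.84 ± 0.19 (adjusted p = 0.0119). Etopo alone gave -0.04 ± 0.27 (95% interval -0.60 to 0.52) in WT and -1.03 ± 0.30 (-1.65 to -0.40, adjusted p = 0.766) in KO. The KO Topo call rested on single arrays: without KO Topo 1, the change was -0.78 (adjusted p = 0.285), without KO Topo 2 -1.16 (0.0742), without KO DMSO 1 -0.996 (0.146) and without KO DMSO 3 -1.004 (0.236), and without KO Etopo Topo 1 the KO change under both drugs was -1.45 (0.0851). With age in the fit the combined treatment gave -1.15 in WT (adjusted p = 0.079) and -1.43 in KO (0.16), and without WT Etopo Topo 1 and 2, whose labels conflict, -1.17 in WT (0.149).

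Top2b lay between 7.93, on WT DMSO 2, and 9.08, on KO DMSO 1. In the drug comparisons its differences from DMSO ran from -0.34 ± 0.22 in KO Etopo Topo to 0.17 ± 0.20 in WT Topo. The starts of the Top2a and Top2b genes are shown because these paralogs had unlike courses; the 250 bases before each start come from RefSeq (GRCm38.p6), at chr11:99024190-99024439 on the minus strand for Top2a and chr14:16364956-16365205 on the plus strand for Top2b. Capitals mark CCAAT boxes (CCAAT, or ATTGG on the opposite strand) and cell cycle homology elements (TTTGAA or TTCGAA, or TTCAAA on the opposite strand).
Top2a: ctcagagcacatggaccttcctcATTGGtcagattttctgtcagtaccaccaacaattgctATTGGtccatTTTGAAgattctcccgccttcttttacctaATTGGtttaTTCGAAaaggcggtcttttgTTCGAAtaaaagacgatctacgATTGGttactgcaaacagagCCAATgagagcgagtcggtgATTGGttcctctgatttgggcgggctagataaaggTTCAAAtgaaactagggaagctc
Top2b: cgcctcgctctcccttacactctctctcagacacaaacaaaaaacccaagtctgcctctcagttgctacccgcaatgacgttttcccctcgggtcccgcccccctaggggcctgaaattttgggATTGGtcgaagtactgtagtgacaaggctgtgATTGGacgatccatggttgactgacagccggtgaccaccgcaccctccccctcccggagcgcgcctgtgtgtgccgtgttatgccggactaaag
Top2a held 6 CCAAT boxes and 4 homology elements, none overlapping another, and Top2b held 2 CCAAT boxes and 0 homology elements. Of 32851 promoters of this length in the table, 33.8% held a CCAAT box and 0.0578% at least 6, while 17.1% held a homology element and 0.0183% at least 4. Among the 24 genes of a mitosis list with a promoter in the table, 9 (37.5%) held both motifs, against 6.21% of all 27025 genes. A match describes letters in the window and does not show that a factor binds there.

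The type IA enzymes Top3a and Top3b, which pass single DNA strands and, for Top3b, also act on RNA, passed the threshold against DMSO once, for Top3a in KO under both drugs. Top3a read 7.39, 7.65 and 7.68 in WT DMSO and 7.80, 7.88 and 7.94 in KO DMSO, and 7.38 and 7.62 in KO Etopo Topo. The KO Etopo Topo arrays lay below all KO DMSO arrays, with a change of -0.37 ± 0.13 (limma adjusted p = 0.0466). That call was lost without any of KO DMSO 1, KO DMSO 2, KO DMSO 3 or KO Etopo Topo 1, with changes of -0.41 (adjusted p = 0.0584), -0.37 (0.0846), -0.34 (0.113) and -0.25 (0.528), and with the replicate block, -0.34 (0.0769). Top3a was 0.30 ± 0.12 higher in KO DMSO than in WT DMSO, short of the threshold (adjusted p = 0.0821). Top3b ran from 9.26, on KO Etopo Topo 1, to 10.04, on WT Etopo Topo 1, and its lowest adjusted p against DMSO was 0.11, for -0.36 ± 0.17 in KO Etopo Topo. The other KO Etopo Topo array read 9.92 for Top3b, within the range of the other groups. Without that array the change was -0.69 (adjusted p = 0.00384), and without KO Etopo Topo 1 it was -0.03 (0.964).

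Tdp1, which frees DNA ends from trapped Top1, fell under Topo and under both drugs in either genotype and was higher in KO than in WT throughout. In WT it read 10.42, 10.20 and 10.37 with DMSO, 10.02, 10.17 and 9.95 under Etopo, 9.36, 9.93 and 9.73 under Topo, and 9.24, 9.26 and 9.17 under both drugs. These 4 WT groups followed each other from high to low with no overlap between neighbours, though by small margins. The lowest DMSO array (10.20) stood just above the highest Etopo array (10.17), and the lowest Etopo array (9.95) just above the highest Topo array (9.93). Both margins were smaller than the spread within these groups. The share of all genes in such an order was not counted. In KO it read 10.84, 11.14 and 11.06 with DMSO, 10.79 and 10.80 under Etopo, 10.04, 10.34 and 10.45 under Topo, and 10.32 and 10.46 under both. All KO drug arrays lay below the KO DMSO arrays, under Etopo by a margin smaller than the spread among the DMSO arrays, while the KO Topo and KO Etopo Topo ranges overlapped. Over all 8 groups the order of means was KO DMSO, KO Etopo, KO Etopo Topo, WT DMSO, KO Topo, WT Etopo, WT Topo and WT Etopo Topo, in which KO Etopo Topo, WT DMSO, KO Topo and WT Etopo overlapped with their neighbours.

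Under both drugs Tdp1 fell by 53.6% in WT. The log2 change was -1.11 ± 0.14 (limma adjusted p = 5.18e-05), which placed Tdp1 at rank 27 by p among all genes, and in KO it was -0.63 ± 0.15 (adjusted p = 0.0123). Topo alone gave -0.66 ± 0.14 (adjusted p = 0.0124) in WT and -0.74 ± 0.14 (adjusted p = 0.0134, rank 38) in KO. Etopo alone gave -0.29 (95% interval -0.57 to -0.0009, adjusted p = 0.897) in WT and -0.21 (-0.54 to 0.11, adjusted p = 0.999) in KO. Tdp1 arrays lay below all their DMSO arrays in all 6 drug comparisons, as did 7.31% of all genes for WT Etopo and 11.4% for WT Topo, beside the shares given for Top2a. The 3 drug groups of a genotype share their DMSO arrays. The WT Topo call was lost without WT DMSO 1 (-0.61, adjusted p = 0.06), WT DMSO 3 (-0.64, 0.0553) or WT Topo 1 (-0.50, 0.118), the KO Topo call without KO DMSO 3 (-0.72, 0.0888) or KO Topo 1 (-0.62, 0.0697), and the KO Etopo Topo call without KO Etopo Topo 1 (-0.56, 0.202), with age in the fit (-0.59, 0.194) or with quantile normalization (-0.33, 0.0937). The WT call under both drugs held without each single array, with age in the fit and without WT Etopo Topo 1 and 2 (-1.16, adjusted p = 0.011), and with 4-week arrays alone, among them a single DMSO array, the change was -1.15 (0.2).

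The 250 bases before the start of Tdp1, at chr12:99884268-99884517 on the plus strand (RefSeq, GRCm38.p6), are given for contrast with Top2a, since both genes fell under the drugs.
Tdp1: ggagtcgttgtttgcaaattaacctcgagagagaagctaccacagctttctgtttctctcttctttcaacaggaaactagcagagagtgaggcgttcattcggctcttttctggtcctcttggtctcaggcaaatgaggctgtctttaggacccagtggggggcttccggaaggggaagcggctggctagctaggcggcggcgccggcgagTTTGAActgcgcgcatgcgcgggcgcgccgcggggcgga
This stretch held 0 CCAAT boxes, 1 homology element (in capitals) and 58.4% G and C, against 43.6% in the Top2a window. Of the 5 genes found in the promoter table (Top1, Top2a, Top2b, Top3b and Tdp1), Top2a was the richest in both motifs.

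Tdp2, which frees DNA ends from trapped type II enzymes, passed the threshold against DMSO where both drugs were given, in KO and over both genotypes, and in no other comparison with DMSO. It read 8.61, 8.48 and 8.57 in WT DMSO, 8.67, 8.27 and 8.44 in WT Etopo, 8.30, 8.46 and 8.50 in WT Topo, and 8.24, 8.03 and 7.97 in WT Etopo Topo. In KO it read 9.30, 8.71 and 8.97 with DMSO, 8.80 and 8.73 under Etopo, 8.52, 8.61 and 8.79 under Topo, and 7.80 and 8.42 under both. Both Etopo Topo groups lay below their DMSO arrays, and the KO pair was far apart. The log2 change under both drugs was -0.88 ± 0.18 (limma adjusted p = 0.0047) in KO and -0.47 ± 0.16 (adjusted p = 0.0559) in WT, and -0.68 ± 0.12 (adjusted p = 0.000446) over both genotypes. Without KO Etopo Topo 1, the lower array of the pair, the KO change was -0.57 (adjusted p = 0.191). With age in the fit, which goes with the combined treatment, both calls were lost, at -0.88 (adjusted p = 0.151) in KO and -0.67 (0.0975) over both genotypes. Under Etopo, the drug aimed at the enzymes whose remains Tdp2 removes, its change was -0.09 (95% interval -0.42 to 0.23) in WT and -0.23 (-0.59 to 0.14) in KO.

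Counted over the 8 genes, the drugs lowered transcripts and raised none at the threshold. Under Topo 1 of 8 fell in WT (Tdp1) and 2 of 8 in KO (Tdp1 and Top2a), where 2.21% and 1.03% of all genes were called and 1.38% and 0.78% fell. Under both drugs 2 of 8 fell in WT (Tdp1 and Top2a), where 10.9% of all genes were called and 7.28% fell, and 4 of 8 in KO (Tdp1, Top2a, Tdp2 and Top3a), where 22.8% were called and 11.7% fell. Averaged over genotypes, 2 of 8 fell under Topo, where 4.92% of all genes were called and 3.11% fell, and 3 of 8 under both drugs, where 32% were called and 17.1% fell. Under Etopo limma called 0 of 8 in WT (0.00506% of all genes), in KO (0%) and over both genotypes (0%), and at an unadjusted p under 0.05 there were 1, 1 and 2 of the 8.

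Set against each other, the single drugs did not separate at the threshold for any of the 8 genes. Under Topo relative to Etopo, Tdp1 was -0.37 ± 0.14 in WT (adjusted p = 0.998) and -0.52 ± 0.15 in KO (adjusted p = 1), and Top2a was -0.52 ± 0.27 in WT (0.998) and -0.08 ± 0.30 in KO (1). There limma called 0 of 8 (1 of 8 in WT and 2 of 8 in KO at an unadjusted p under 0.05) against 0.00506% and 0% of all genes. Adding Topo to Etopo in WT lowered Tdp1 by -0.82 ± 0.14 (adjusted p = 0.00465) and Top2a by -1.25 ± 0.27 (adjusted p = 0.0162), 2 of 8 against 3.71% of all genes. The Top2a call in that comparison was lost without WT Etopo 1 (-1.21, adjusted p = 0.106), WT Etopo 2 (-1.22, 0.0731) or WT Etopo Topo 2 (-1.11, 0.0885). With age in the fit, which goes with the combined treatment, the Top2a and Tdp1 calls there were both lost. Without WT Etopo Topo 1 and 2 together both calls were lost, with -1.13 (adjusted p = 0.244) for Top2a and -0.87 (0.117) for Tdp1. Adding Etopo to Topo in WT, or either drug to the other in KO, gave 0 of 8 calls by limma, against 0.38%, 1.11% and 1.59% of all genes, with 4, 2 and 2 of the 8 at an unadjusted p under 0.05. For the excess of the combination over the sum of single drugs, limma also called 0 of 8 in WT (0.00506% of all genes) and in KO (0%), with 1 and 0 at an unadjusted p under 0.05.

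**Figure D2:**
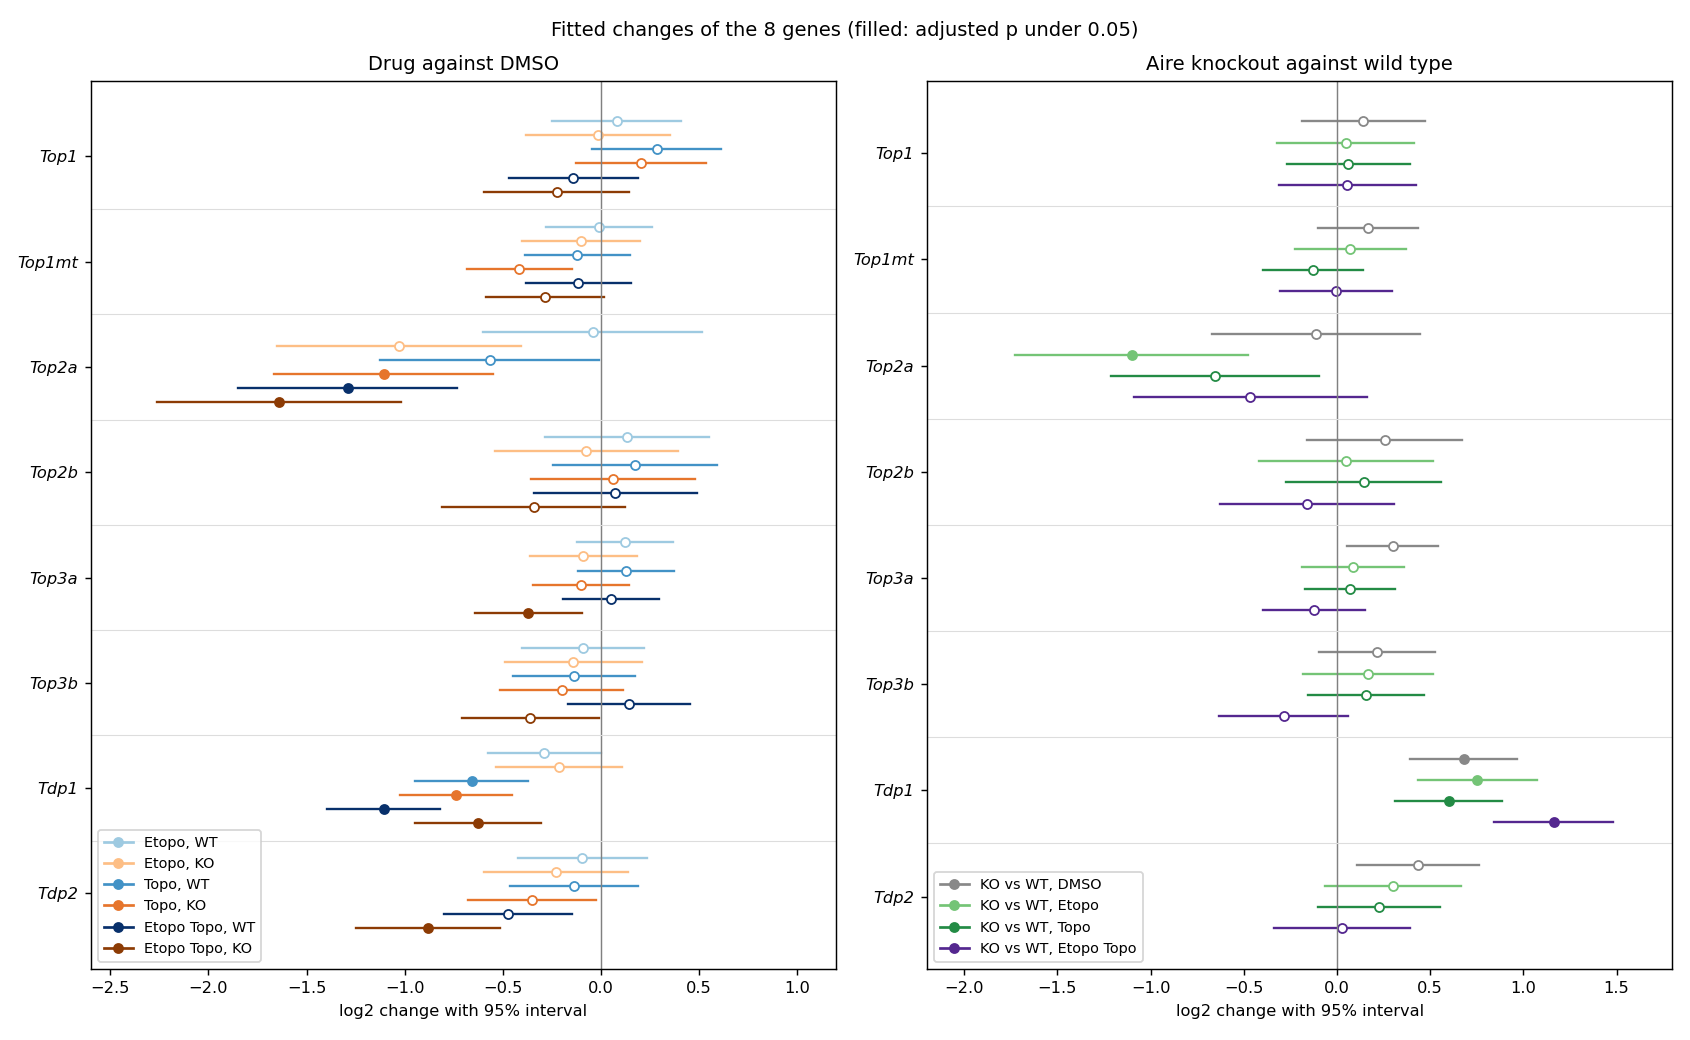
Fitted log2 change of each gene with its 95% interval, for the 6 comparisons of a drug with DMSO (left) and for KO against WT under each treatment (right); filled points passed adjusted p under 0.05. On the left filled points lie below 0 for Tdp1, Top2a, Tdp2 and Top3a, and on the right Tdp1 is filled and above 0 under all 4 treatments.

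Loss of Aire went with more Tdp1 transcript under every treatment. Tdp1 was higher in KO than in WT by 0.68 ± 0.14 with DMSO (a rise of 60.2%, limma adjusted p = 0.00105), by 0.75 ± 0.15 under Etopo (adjusted p = 0.00168), by 0.60 ± 0.14 under Topo (adjusted p = 0.00407) and by 1.16 ± 0.15 under both drugs (a rise of 124%, adjusted p = 2.85e-05). All KO arrays lay above all WT arrays of the same treatment, as did 13.6%, 29.2%, 13.5% and 14.6% of all genes, respectively. These 4 calls held without each single array and in each other alternative that could be run. Over the 4 treatments the difference was 0.80 ± 0.07 (adjusted p = 1.22e-08). The mature MEC list, which contains Aire, was also higher in KO, with group means of 12.16 against 11.91 under DMSO, 12.11 against 11.82 under Etopo, 11.99 against 11.70 under Topo and 11.79 against 11.57 under both drugs, and its part in the Tdp1 difference was not tested.

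Top2a was lower in KO than in WT over the 4 treatments and, among single treatments, passed the threshold under Etopo. There the difference was -1.10 ± 0.30 (limma adjusted p = 0.0164), while the differences were -0.12 ± 0.27 with DMSO (adjusted p = 0.841), -0.66 ± 0.27 under Topo (0.112) and -0.46 ± 0.30 under both drugs (0.381). The difference of the Etopo effect between genotypes was -0.99 ± 0.40 (adjusted p = 0.95), so an unequal response was not established, and the other treatments' differences were not shown to be smaller. The Topo difference was called without WT Topo 1 (-0.96, adjusted p = 0.0261) or KO Topo 3 (-0.93, 0.0275), and was -0.33 (0.508) without KO Topo 1. Without KO Etopo 1 the Etopo difference was -0.90 (adjusted p = 0.237) and without WT Etopo 2 it was -1.07 (0.0505). Over the 4 treatments Top2a was lower in KO by -0.58 ± 0.14 (adjusted p = 0.00238). Tdp2 was higher in KO by 0.25 ± 0.08 over the 4 treatments (adjusted p = 0.0237), a call lost without KO Etopo 1 (0.24, adjusted p = 0.057) or KO Etopo Topo 2 (0.17, 0.0888), and by 0.44 ± 0.16 with DMSO (adjusted p = 0.0569).

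The count of genes that differed between genotypes was 1 of 8 with DMSO (19.4% of all genes called), 2 of 8 under Etopo (12.6%), 1 of 8 under Topo (15%), 1 of 8 under both drugs (10.4%) and 3 of 8 over the 4 treatments (35.9%). Top1, Top1mt, Top2b and Top3b were in none of these counts, and over the 4 treatments their differences were 0.02 to 0.08. No drug effect on the 8 genes differed between genotypes by limma: 0 of 8 for Etopo (0% of all genes), Topo (0.0759%) and both drugs (2.46%), with 1, 0 and 3 of the 8 at an unadjusted p under 0.05. For Tdp1 the effect of both drugs was 0.48 ± 0.21 less negative in KO than in WT (adjusted p = 0.281).

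Top2a ran with several gene lists, over the arrays most closely with the genes of cell division. Over the 22 arrays its Pearson r with the mean of 29 mitosis genes was 0.91 (Spearman rho 0.92), and r was 0.79 for deviations from the group means. With the cleavage-complex processing list, treated below, r of Top2a was 0.40, and 0.79 for deviations. Within groups Top2a thus followed both lists about alike. With the end joining list these values were 0.74 and 0.60, and with ubiquitin and SUMO turnover 0.45 and 0.63. Arrays of a group share treatment and genotype, and all arrays share normalization, so these values describe the set and carry no test. The genes with the highest r to Top2a were Rrm1 (0.97, rho 0.96), Rrm2 (0.93, rho 0.91), Bzw2 (0.93, rho 0.91), Nusap1 (0.92, rho 0.87) and Aldh18a1 (0.92, rho 0.91). Rrm1 and Rrm2 encode the subunits of ribonucleotide reductase, which makes deoxynucleotides, and Nusap1 a protein of the mitotic spindle. Thymocyte markers were highest on WT DMSO 1 and KO DMSO 1, and without both of these arrays the Top2a call under Topo over both genotypes was lost (-0.70, limma adjusted p = 0.0765). The part of thymocyte RNA in the Top2a values was not tested.

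Tdp1 followed several gene lists over the arrays, most closely that of the mature MEC. Its r with the mean of the mature MEC list was 0.89 over the 22 arrays and 0.53 for deviations from the group means, and with 10 tuft cell genes it was -0.81 and -0.08. With the mitosis list Tdp1 had r = 0.40 over the arrays and 0.55 for deviations, so within groups it followed both lists about alike. With the lists of cleavage-complex processing and of ubiquitin and SUMO turnover, treated below, r of Tdp1 was 0.79 and 0.66, and 0.48 and 0.64 for deviations. Tdp2 followed the mature MEC list as well (0.86, and 0.63 for deviations). With those 2 other lists r of Tdp2 was 0.81 and 0.84, and 0.58 and 0.57 for deviations. The gene most like Tdp1 was Il1r2 (r 0.96, rho 0.95), a decoy receptor for interleukin 1. Next came Mras (0.95, rho 0.93), a small GTPase, Reln (0.95, rho 0.94), a secreted matrix protein, Serpinb10 (0.95, rho 0.93) and Crhbp (0.94, rho 0.92), which binds corticotropin-releasing hormone. For Il1r2 and Reln r fell to 0.66 and 0.33 for deviations from the group means. Tdp1 and Tdp2 had r = 0.71 (rho 0.76) over the arrays but 0.11 for deviations, lower within groups than between them.

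**Figure D3:**
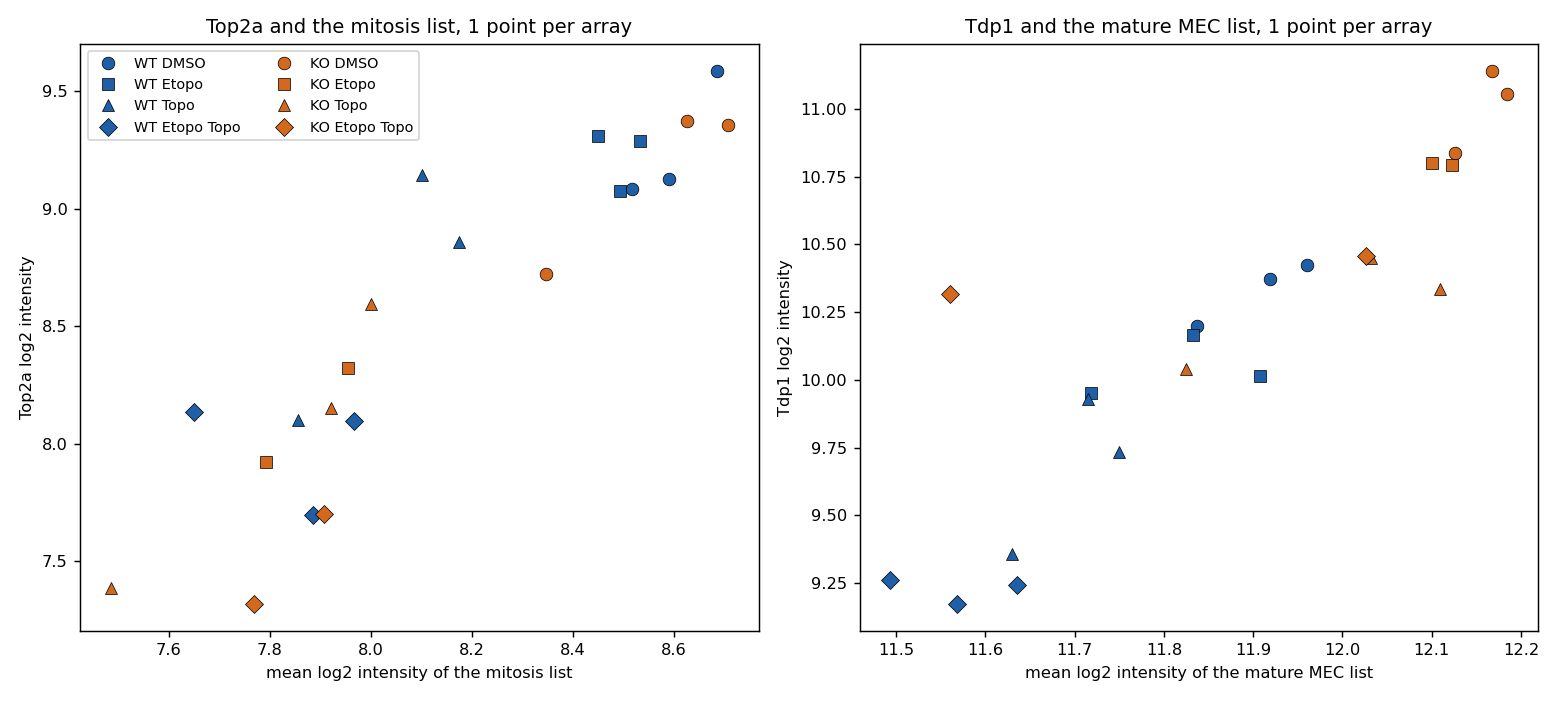
Log2 intensity of Top2a against the mean of the mitosis list (left) and of Tdp1 against the mean of the mature MEC list (right), 1 point per array, with WT in blue, KO in orange and the treatment given by the marker. Top2a rises with the mitosis list (r = 0.91) and Tdp1 with the mature MEC list (r = 0.89), where the KO DMSO arrays lie at the upper end.

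The other members each had their own set of like genes. Tdp2 was most like Ezr (r 0.95, rho 0.93), the membrane linker ezrin, followed by Suclg2, Pphln1, Ecpas and Nmt1 (0.94 to 0.95). Top1 was most like Zfand5 (0.88, rho 0.86), then Erap1, Nckap1, Tlk1 and Tmem106b (0.84 to 0.87). Top2b was most like Zmym2 (0.91, rho 0.88) and Nipbl (0.91, rho 0.89), the cohesin loader, then Thoc2, Exoc5 and Dhx40 (0.87 to 0.90). Top3b was most like Unk (0.94, rho 0.95), then Mink1, Ikbke, Otud5 and Klc1 (0.87 to 0.90). Top1mt was most like Elmo2 (0.89, rho 0.85), then Hunk, Mrpl49, Cluap1 and Elp3 (0.84 to 0.85), and Top3a most like Nelfcd (0.86, rho 0.84), then Cog7, Tstd2, Dus1l and Stx6 (0.83 to 0.86). Between members, Top1 and Top2b had r = 0.66 (rho 0.63), and 0.63 for deviations from the group means, whereas Top2a and Top2b had 0.21.

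Genes that process cleavage complexes beside Tdp1 and Tdp2 had no call under the single drugs. In the lists that follow, brackets hold the log2 change with its SE and limma's adjusted p. Of all 19752 genes, 1097 in WT Etopo, 2275 in WT Topo, 707 in KO Etopo and 2298 in KO Topo had an unadjusted p under 0.05. Of the 18 cleavage-complex genes measured, limma called 0 under Etopo or Topo in either genotype. At that unadjusted p there were 0, 1, 0 and 2 of the 18 for WT Etopo, WT Topo, KO Etopo and KO Topo. Under both drugs 1 fell in WT, Rad50 of the nuclease complex that trims blocked ends (-0.53 ± 0.13, adjusted p = 0.01), where 7.28% of all genes fell, with a median of -0.06 over the list against -0.01 over all genes. In KO 3 fell under both drugs, the break sensor Parp1 (-0.53 ± 0.15, adjusted p = 0.0221), the gap-filling polymerase Polb (-0.48 ± 0.17, 0.0487) and the nuclease Mre11a (-0.46 ± 0.16, 0.0493), where 11.7% of all genes fell, with a median of -0.21 against 0.06. The Rad50 call in WT was lost without WT DMSO 1 or WT Etopo Topo 3 (-0.45, adjusted p up to 0.063), and without KO Etopo Topo 1 limma called 0 of 18 in KO, where 68 of all 19752 genes then passed. It called 0 of 18 in KO without KO DMSO 3, 1 without KO DMSO 1 and 6 without KO Etopo Topo 2. Rad50 was higher in KO than in WT under all 4 treatments, by 0.71 ± 0.13 with DMSO (adjusted p = 0.000317), 0.83 ± 0.14 under Etopo (0.000312), 0.84 ± 0.13 under Topo (7.7e-05) and 0.92 ± 0.14 under both drugs (0.000171). With DMSO the nuclease Mus81 (0.42 ± 0.13, 0.0276) and Zfp451, a SUMO ligase known as a cofactor of Tdp2 (0.37 ± 0.12, 0.0423), were higher in KO as well, which made 3 of 18 higher and 0 lower, where 19.4% of all genes were called. Both of these calls were lost when any of several single DMSO arrays was left out (adjusted p 0.058 to 0.215), among them WT DMSO 2, WT DMSO 3 and KO DMSO 3, and the Rad50 calls between genotypes held each time.

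Genes that tag trapped topoisomerase with ubiquitin or SUMO fell in part under both drugs. Of 15 measured, limma called 2 lower in WT, the SUMO-targeted ubiquitin ligase Rnf4 (-0.39 ± 0.12, limma adjusted p = 0.0403) and Sumo2 (-0.33 ± 0.11, 0.0487), where 7.28% of all genes fell, with a median of -0.12 against -0.01 over all genes. In KO 4 fell, Sae1, a subunit of the SUMO activating enzyme (-1.16 ± 0.22, 0.00407), Rnf4 (-0.61 ± 0.13, 0.00714), Sumo2 (-0.40 ± 0.12, 0.0254) and Btbd1 (-0.69 ± 0.22, 0.0308), where 11.7% of all genes fell, with a median of -0.32 against 0.06. Under the single drugs limma called 0 of 15, with 0, 0, 0 and 1 at an unadjusted p under 0.05 for WT Etopo, WT Topo, KO Etopo and KO Topo. Without KO Etopo Topo 1 limma called 0 of 15 in KO, without KO DMSO 3 it called 2, and without WT DMSO 1, WT Etopo Topo 2 or WT Etopo Topo 3 it called 0 of 15 in WT, and 1 without WT DMSO 2. The SUMO protease Senp1 was higher in KO than in WT with DMSO (0.55 ± 0.14, 0.00562), under Topo (0.61 ± 0.14, 0.00323) and under both drugs (0.48 ± 0.15, 0.0457). The DMSO call was lost without WT DMSO 2 (0.39, 0.0561), and the call under both drugs without any WT Etopo Topo array or KO Etopo Topo 2 (0.34 at the least, adjusted p up to 0.174).

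Proteins that bind topoisomerases, 16 in the list, moved both ways. In WT under both drugs 1 rose, the remodeller Chd7 (0.92 ± 0.22, limma adjusted p = 0.00913), and 1 fell, Ctcf (-0.48 ± 0.15, 0.0397), which marks sites where Top2b acts, 2 of 16 where 10.9% of all genes were called. Under the single drugs limma called 0 of 16, with 0, 2, 4 and 3 at an unadjusted p under 0.05 for WT Etopo, WT Topo, KO Etopo and KO Topo. In KO under both drugs 4 rose and 3 fell, among them Chd7 (0.98 ± 0.24, 0.0127), Ctcf (-0.62 ± 0.17, 0.0161), the condensin subunit Ncapd2 (-0.48 ± 0.14, 0.0226) and Xrcc5 (-1.09 ± 0.23, 0.00621), where 22.8% of all genes were called. Xrcc5, a subunit of the Ku ring on broken ends, also belongs to the 9 measured end joining genes. Of these, Xrcc5 and Trp53bp1 (-0.60 ± 0.16, 0.0177) fell in KO under both drugs and none rose. Of all genes there, 22.8% were called in either direction, a share near that of this list, and 11.7% fell. In WT under both drugs limma called 0 of 9 (1 at an unadjusted p under 0.05). Xrcc4, the partner of the end joining ligase, was higher in KO with DMSO (0.55 ± 0.13, 0.005), 1 of 9 where 19.4% of all genes were called. The WT calls of Chd7 and Ctcf were lost without WT DMSO 2 or WT Etopo Topo 2 (adjusted p up to 0.0635 and 0.19), and that of Ctcf also without WT DMSO 1 or WT Etopo Topo 3. In KO limma called 0 of 16 and 0 of 9 without KO Etopo Topo 1, 2 of 16 and 1 of 9 without KO DMSO 3, and 3 of 16 and 1 of 9 without KO DMSO 1, while without KO Etopo Topo 2 it called 5 of 9. The part of the narrow signal range on KO Etopo Topo 1 in these KO changes was not tested.

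Of 11 genes of drug transport, limma called none under a single drug or in WT under both. At an unadjusted p under 0.05 there were 1 in WT Etopo, 3 in WT Topo, 0 in KO Etopo, 3 in KO Topo and 5 in WT Etopo Topo. In KO under both drugs Abcc2 (0.57 ± 0.17, limma adjusted p = 0.0247) and Slco1b2 (0.44 ± 0.15, 0.0395) rose and Abcb1b (-0.42 ± 0.14, 0.0426), a form of P-glycoprotein, fell. That made 3 of 11, a share near the 22.8% of all genes called. None of these 3 passed without KO Etopo Topo 1 or without KO DMSO 1, and 1 passed without KO DMSO 3. Between genotypes with DMSO 3 of 11 were lower in KO and 0 higher, where 19.4% of all genes were called, Slc22a2 (-0.67 ± 0.13, 0.000668), Abcg2 and Abcc2 (-0.49 ± 0.15, 0.0246, lost without WT DMSO 1 or KO DMSO 1). Under Etopo 1 was lower, Abcg2, and 1 higher, Abcc5 (0.41 ± 0.11, 0.018), where 12.6% were called; the Abcc5 call was lost without WT Etopo 2 or either KO Etopo array (adjusted p up to 0.18). Abcg2, the export pump known for topotecan, was lower in KO with DMSO (-0.38 ± 0.11, 0.0192), under Etopo (-0.44 ± 0.12, 0.0198) and under Topo (-0.64 ± 0.11, 0.000316). The DMSO call was lost without KO DMSO 2 (-0.33, 0.0785) and the Etopo call without WT Etopo 1, WT Etopo 3 or either KO Etopo array (adjusted p up to 0.183), while the Topo call held without each single array. The meiotic list held 5 genes, of which 2 were higher in KO under each of the 4 treatments. Of all genes, limma called 19.4% with DMSO, 12.6% under Etopo, 15% under Topo and 10.4% under both drugs. In this list Mei1 was lower in KO with DMSO (-0.48 ± 0.16, 0.0318), a call lost without WT DMSO 2, WT DMSO 3 or any KO DMSO array (adjusted p up to 0.22). Spo11, the germ cell relative of topoisomerase VI that makes meiotic breaks, was higher in KO under all 4 treatments, by 0.52 ± 0.14 with DMSO (0.0118), 0.72 ± 0.16 under Etopo (0.00278), 1.04 ± 0.14 under Topo (1.7e-05) and 0.69 ± 0.16 under both drugs (0.00585), and so was its accessory gene Mei4, by 0.58 to 0.97. The Spo11 call was lost without WT DMSO 2 or KO DMSO 1 (adjusted p up to 0.0926) and, under Etopo, without KO Etopo 2 (0.0795), and the Mei4 calls held without each single array.

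Mitosis genes fell in the comparisons with DMSO in which Top2a was called, and also under Topo in WT, where Top2a was not called. Of 29 measured, 7 fell under Topo in WT and 15 in KO, 24 fell under both drugs in WT and 19 in KO, and none rose in these comparisons. The shares of all genes that fell were 1.38%, 0.78%, 7.28% and 11.7%. These counts moved with single arrays: for WT Topo limma called 0 without WT DMSO 1 or WT Topo 1, 2 without WT DMSO 3, 4 without WT Topo 2 and 3 without WT Topo 3. For KO Topo it called 0 without KO DMSO 3, 4 without KO Topo 1 and 7 without KO DMSO 1. For both drugs it called 14 in WT without WT DMSO 1, and in KO 12 without KO DMSO 3 and 1, Cdk1, without KO Etopo Topo 1. Without WT Etopo Topo 1 and 2 together 2 of 29 were called in WT. The medians were -0.54, -0.78, -0.77 and -0.80, against 0.00, 0.01, -0.01 and 0.06 over all genes. Under both drugs the mitotic kinase Cdk1 changed by -1.15 ± 0.17 in WT (limma adjusted p = 0.000157) and -1.31 ± 0.19 in KO (0.000826), and the spindle factor Tpx2 by -0.98 ± 0.15 (0.000331) and -0.91 ± 0.17 (0.0037). Under Topo the motor Cenpe changed by -0.79 ± 0.16 in WT (0.0106), and Kif20a (-1.03 ± 0.17, 0.00973) and the proliferation marker Mki67 (-1.20 ± 0.22, 0.0131) changed in KO. Under Etopo limma called 0 of 29 in either genotype. In KO, however, 27 of 29 had an unadjusted p under 0.05, with a median of -0.63, against 0 of 29 and -0.12 in WT. Of all 19752 genes, 707 in KO and 1097 in WT had such a p, and the medians were 0.02 and -0.04. For KO against WT under Etopo limma called 12.6% of all genes. The 29 mitosis genes had a median of -0.58 there, against 0.04 over all genes. Between genotypes under Etopo 14 were lower in KO and none higher, led by Kif23 (-1.04 ± 0.19, 0.000544), Kif11 (-1.45 ± 0.27, 0.000576) and Bub1 (-1.18 ± 0.22, 0.000578), which were 6 without KO Etopo 1 and 9 without KO Etopo 2.

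**Figure D4:**
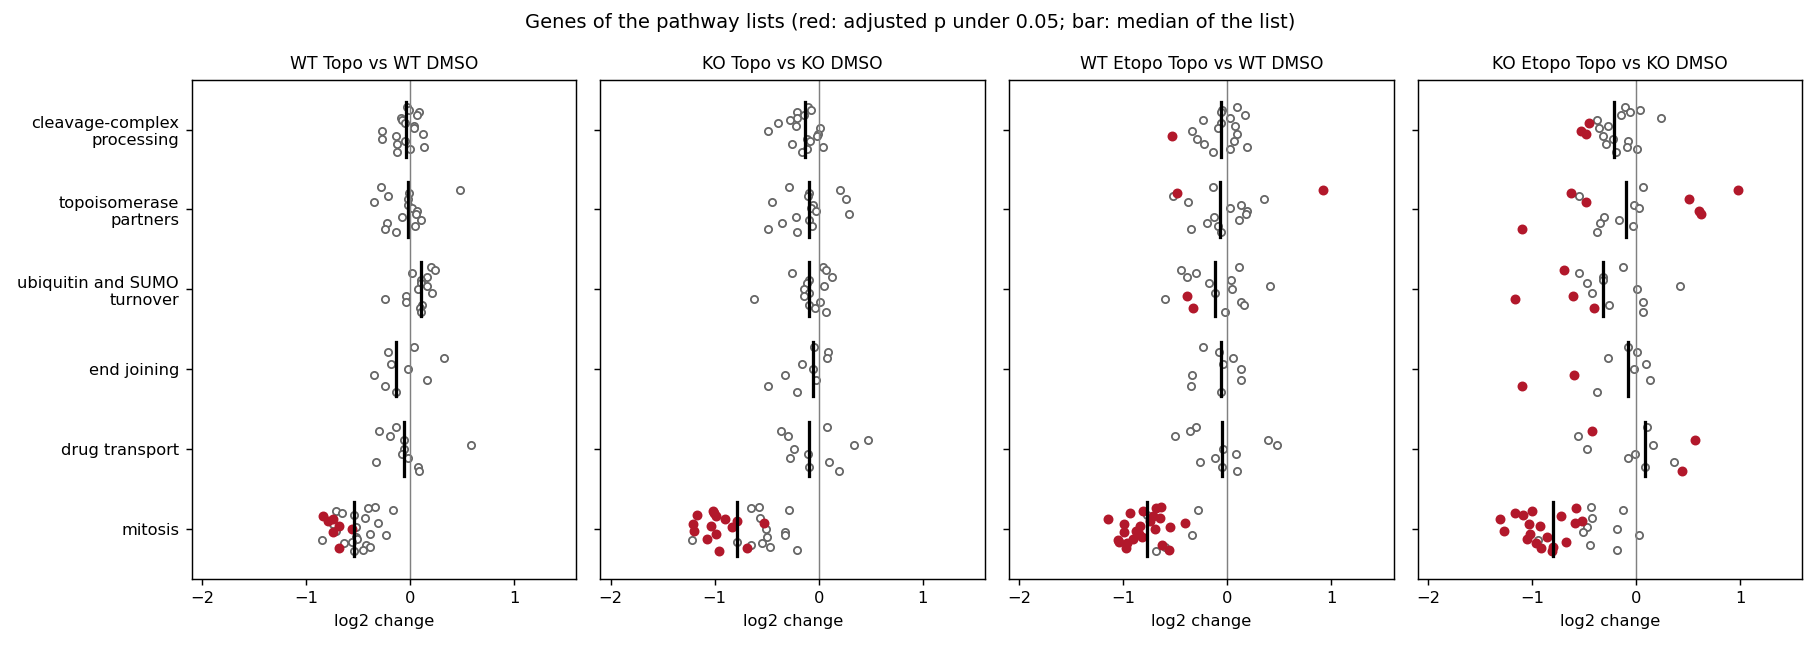
Log2 change of each gene in 6 pathway lists, for Topo and for both drugs against DMSO in WT and KO; red points passed adjusted p under 0.05, open points did not, and bars mark list medians. The median of the mitosis list lies below 0 in all 4 panels, with 7, 15, 24 and 19 of 29 genes in red, while the repair lists lie near 0 apart from KO Etopo Topo.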

How the data were processed

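Total RNA of 22 sorted samples was measured on Affymetrix Gene ST 1.0 arrays. The authors deposited 1 normalized intensity per probe and array; per the submitters' processing notes, RMA and Affymetrix Power Tools were used, with versions not given in the sources used here. The values are linear, whereas the planned tests assumed log2, so log2 was taken first and the same tests were run. GEO's platform annotation supplied gene symbols: of 24922 probes, 21425 had 1 symbol, 1399 several and 2098 none. For each of 19752 genes the probe with the highest mean was kept.

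One limma model (limma 3.58.1 in R 4.3.3) with 8 groups and no covariate gave 25 contrasts, with 14 residual and 7.22 prior degrees of freedom. P-values were adjusted by Benjamini-Hochberg over all genes, and genes were called at adjusted p under 0.05. Groups of 2 or 3 arrays limit the precision, and an exact permutation test of 3 arrays against 3 cannot go below p = 0.1, so none was run. The fit was tested on simulated data.

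The members and lists were chosen with earlier results of these data known. All 8 members were named, up to 4 genes of lowest p per list and contrast, and the 5 genes most like each member by Pearson r over the arrays. Where a list's contrast is given by count alone, its genes were left unnamed. Some genes of the lists were not analysed here, and counts are over those measured. Promoters came from the RefSeq tables (GRCm38.p6), which matched 5 of the 8 members. The alternatives changed the scaling, age, replicate number, arrays and groups in the fit, filter, offset, probes, array weights and variance prior.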

Additional observations from a re-analysis of the deposited data

How the results depend on the processing

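Of the members' values called as reported, none changed sign under any alternative, and of 3340 values not called, 42 were called under an alternative and 185 changed sign. The call of Top2a in KO Topo was lost in 12 of 18 alternatives, and in KO Etopo Topo those of Top3a, Tdp1, Tdp2 and Top2a in 9, 6, 5 and 4 of 16. The counts below are of the 8 members, by limma, and counts not given kept within 1.5 times. A count within that bound can hide a lost call, as for Tdp1 in KO Etopo Topo with quantile normalization (-0.33, adjusted p = 0.0937). Quantile normalization gave 1 for KO Topo and 2 for KO against WT with DMSO. Age as a covariate gave 1 for WT Etopo Topo, 1 for KO Topo, 0 for KO Etopo Topo, 0 for WT Etopo Topo against Etopo and 1 for Etopo Topo over both genotypes. Leaving out WT Etopo Topo 1 and 2 gave 1 for WT Etopo Topo and 0 for WT Etopo Topo against Etopo. Leaving out both DMSO 1 arrays gave 0 for WT Topo, 1 for KO Topo and 1 for Topo over both genotypes. A fit of only the groups compared gave 0 for KO Topo and 0 for KO Etopo Topo. An offset of 32 gave 1 for KO Topo and 2 for KO against WT with DMSO, and keeping every probe gave 1 for KO Topo. Trend and robust settings gave 2 for KO against WT with DMSO. Array weights, whose fit stopped before convergence, gave 3 for WT Topo, 1 for KO Etopo, 0 for KO Etopo Topo, 4 for KO against WT with DMSO and 3 under Topo, 1 for the difference of the Etopo effect, 4 for WT Etopo Topo against Topo, 3 for WT beyond the sum of single drugs, 1 for KO Topo against Etopo, and 1 and 4 for Etopo and Topo over both genotypes. A further 3 alternatives were chosen after seeing the data: 6-week arrays alone gave 0 for WT Topo and 1 for KO Topo, 4-week arrays alone gave 0 for WT Etopo Topo and 0 for it against Etopo, and leaving out KO Topo 1 with KO Etopo Topo 1 gave 1 and 1 for those groups against DMSO. The replicate block gave 3 for KO Etopo Topo, with Top3a lost (-0.34, adjusted p = 0.0769), and every other count was as reported; the numbers were not taken as pairs, since 25 of 71 pairs of arrays with the same number had residuals correlated over 0.1 (median -0.05), against 49 of 140 pairs with other numbers (median 0.0007). Leaving out single arrays, where a lone array was assumed to vary like the other groups, gave 0 to 1 for WT Topo, 0 to 2 for KO Topo, 0 to 5 for KO Etopo Topo, 1 to 2 for WT Etopo Topo against Etopo, 0 to 3 for KO Etopo Topo against Topo, 0 to 2 against Etopo, 0 to 2 for the difference of the Etopo Topo effect, and 1 to 2 for KO against WT under each of the 4 treatments. The causes of these changes were not tested. Over all genes the calls ranged from 103 to 4553 for WT Topo (436 as reported), 0 to 6000 for WT Etopo Topo (2149), 0 to 1345 for WT Etopo (1), 0 to 246 for KO Etopo (0), 0 to 1368 for KO Topo (204), 0 to 9170 for KO Etopo Topo (4513), 2586 to 8412 for KO against WT with DMSO (3825), 1179 to 6435 under Etopo (2482), 2047 to 6905 under Topo (2961), 274 to 4952 under both drugs (2063), 495 to 4122 for Topo over both genotypes (971) and 111 to 9246 for both drugs (6319). With quantile normalization 1432 genes were higher and 1490 lower in WT Etopo Topo, against 711 and 1438 as reported, and 1823 and 1947 in KO against WT with DMSO, against 1462 and 2363. Groups of 2 or 3 arrays, ages that go with the combined treatment and a single probe per gene limit all of these values, and transcript levels say nothing of enzyme activity or protein.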
